A study of Homo sapiens with 9 samples.

Results

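Transcripts of 10 genes of the TNF and NF-kB pathway were followed in MOLT4, an established cell line from a human leukemia of the T lineage (T-ALL). The genes were chosen by symbol, 10 of 23621 gene rows in the deposited table, and all 10 were found there: the ligand TNF, the inhibitors NFKBIA, NFKBIE and TNFAIP3, the ubiquitin ligase BIRC3, and the subunits NFKB1, NFKB2, REL, RELA and RELB. Cells were treated for 6 h with 0.1% DMSO as vehicle, with sunitinib, a kinase inhibitor, or with MI-389, which the series design calls a phthalimide conjugate. There were 3 libraries in each of the 3 groups, and all groups share the same cell line and growth medium. The labels of the treated libraries conflict, because another label, the source field, swaps the compounds: sunitinib (1 µM) for libraries titled MI-389, and MI-389 (0.1 µM) for libraries titled sunitinib. Column names and the barcode list follow the titles, so groups are given as titled, and should the source field hold instead, every statement made here swaps its compound. Doses are known from that swapped field alone and were not matched.

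NF-kB is a family of dimeric transcription factors. In resting cells the dimers are held in the cytoplasm by IkB proteins such as IkBalpha, the product of NFKBIA, until IkB kinase (IKK) marks the inhibitor for destruction; the freed dimers then switch on genes that include their own inhibitors. TNF is both a ligand that starts this pathway, through the receptor TNFRSF1A, and a gene that T cells transcribe on activation. A slower non-canonical branch runs through the kinase MAP3K14 (NIK) and the processing of NFKB2, and is held back by TRAF3 together with BIRC2 and BIRC3.

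The deposited values were given as FPKM, by definition fragment counts scaled by transcript length and by the mapped total. Such values allow levels to be set side by side between genes. The deposited values are labelled norm, but whether and how they were scaled between libraries is not stated. Undetected rows stand near 0.1 FPKM in place of 0. Read totals cannot be taken from FPKM, but the size of single steps among low rows put the libraries titled MI-389 at about 1.39 times and those titled sunitinib at about 1.35 times the depth of DMSO. Any scaling between libraries would change these steps as well, so both figures hold depth together with such scaling. Spike-in RNA had been added by cell number, and the median level of 16 spike-in RNAs differed from DMSO by at most 0.04 on the log2 scale in every library. Rescaling to spike-in RNA could therefore move log2 differences only slightly. Summed over all gene rows, levels ran from 2538508 to 2614363 FPKM in the libraries titled MI-389 and from 3040305 to 3479199 in DMSO. In those titled sunitinib they ran from 3378768 to 3631607. The data come from a bulk culture, so fewer cells with a transcript and less transcript per cell cannot be told apart. Of 18 markers of T-ALL and the T lineage, 17 passed the filter of a mean of 1 FPKM, from CD3D at 1562 FPKM or more and LCK at 423 FPKM or more down to LMO2 (5.28 to 31.3 FPKM) and CD4 (1.55 to 3.87 FPKM); LYL1 lay below it (0.184 to 0.457 FPKM). PAX5 and MS4A1 of B cells, CSF1R and S100A8 of myeloid cells and NCR1 of NK cells lay at 0.120 FPKM or less throughout. Of the other lineage markers listed, BLK (43.1 to 51.9 FPKM) and PECAM1 (16.6 to 21.3 FPKM) were the most abundant. Also past the filter were CD79A (6.17 to 9.54 FPKM) and CD79B (1.45 to 2.78 FPKM) of B cells. NKG7 of NK cells (3.17 to 4.32 FPKM), CD68 (1.05 to 2.46 FPKM) and KRT8 (1.28 to 2.21 FPKM) passed it too. The summed level of the 7 B-cell markers was at most 63.7 FPKM in DMSO, 61.5 in MI-389-titled and 58.7 in sunitinib-titled libraries; that of the 9 monocyte and macrophage markers was at most 3.80, 3.88 and 3.49 FPKM. Whether replicates were separate cultures is not stated, and p-values therefore reflect only how far these samples varied, perhaps for technical reasons.

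In DMSO the 10 genes spanned nearly 2 orders of magnitude. RELA, the main activating subunit, stood highest at 58.0 ± 4.13 FPKM (SD, n = 3), followed by NFKBIA at 42.3 ± 4.35 and TNFAIP3 at 15.2 ± 1.00. NFKB2 (9.67 ± 0.860), NFKBIE (8.34 ± 0.909) and BIRC3 (7.66 ± 0.904) came next. NFKBIE, between 7.62 and 9.36 FPKM, overlapped both others, while NFKB2 (8.90 to 10.6 FPKM) lay above BIRC3 (6.66 to 8.42 FPKM) without overlap. NFKB1 stood at 4.29 ± 0.796, REL at 2.07 ± 0.258, RELB at 1.52 ± 0.256 and TNF, the lowest, at 0.681 ± 0.0870 FPKM. REL, between 1.79 and 2.29 FPKM, lay just above RELB, between 1.25 and 1.77 FPKM, without overlap.

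**Figure D1:**
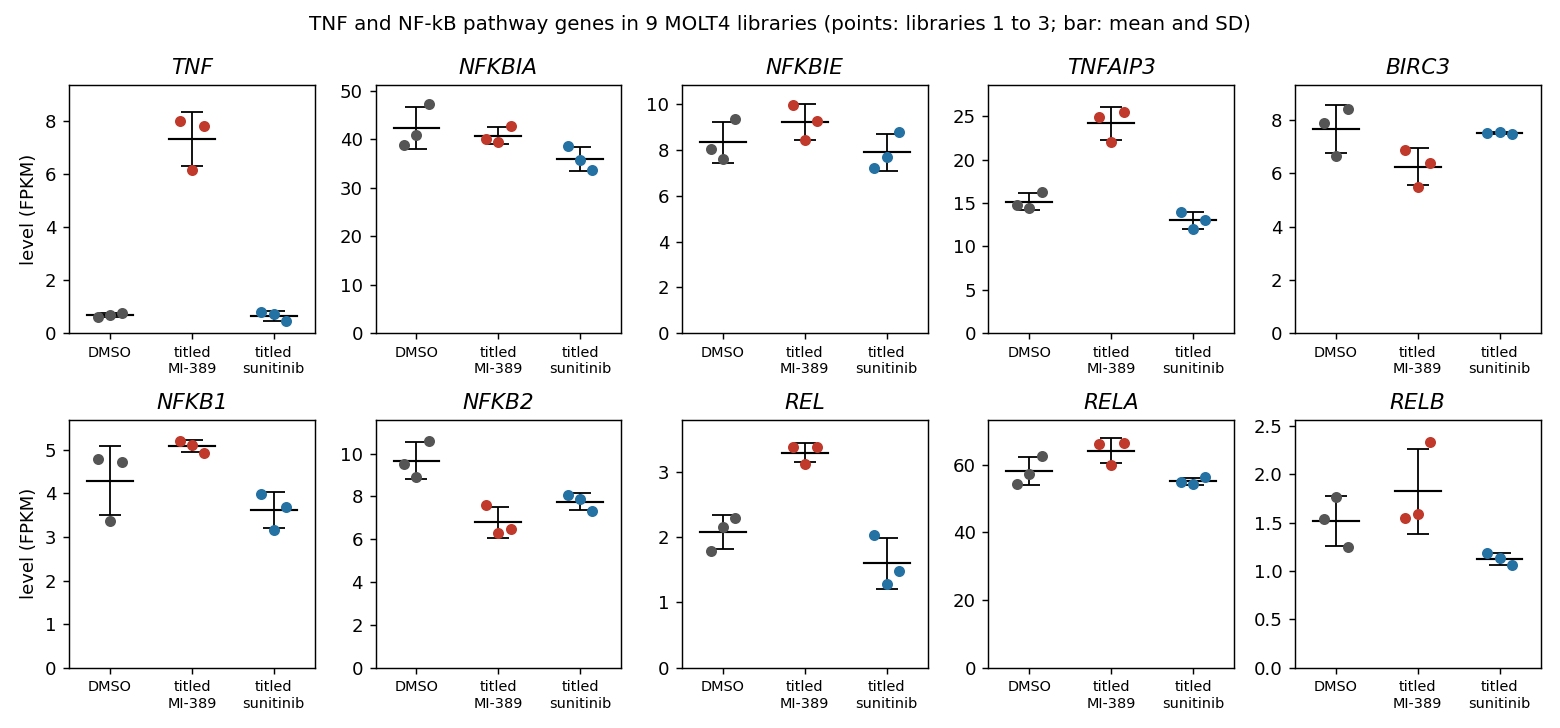
Level of each of the 10 genes in FPKM (vertical axis, linear, from 0) in the 9 libraries; points are libraries, bars the mean and SD of each group. TNF stands between 6.15 and 8.02 FPKM in the libraries titled MI-389 and at 0.782 FPKM or less in the other 6, while NFKBIA overlaps between DMSO and the libraries titled MI-389.

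Among libraries titled MI-389, TNF, TNFAIP3 and REL rose against DMSO, NFKB2 and BIRC3 fell, and NFKBIA, NFKBIE, NFKB1, RELA and RELB did not pass the test. By limma, 5 of the 10 genes therefore passed an adjusted p of 0.05, where 56.7% of all tested genes did (28.5% higher, 28.3% lower), so the share of called members lay near that of all genes. The median log2 difference of the 10 genes was 0.15, against -0.0021 over all genes tested. Libraries did not overlap between the groups for 5 of the 10, against 60.2% of all genes. Median centring of the libraries lowered the share of higher calls over all genes from 50.2% to 39.4%.

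TNF, the ligand, changed most. It stood at 0.591, 0.689 and 0.764 FPKM in DMSO and at 8.02, 6.15 and 7.83 FPKM in the libraries titled MI-389. Every treated library lay far above every control. The ratio of the means was 10.8, and 12.5 once the floor of each library was subtracted, a setting chosen after the data were seen; the log2 difference was 2.30 ± 0.13 (SE; 95% interval 2.002 to 2.604; limma, adjusted p = 1.24e-06). TNF passed the filter of a mean of 1 FPKM over the 9 libraries only through this group. The log2 difference ranged from 1.11 with a pseudocount of 5 to 3.25 with a pseudocount of 0.1, and the call held in all settings tried in which TNF was tested. Over the 9 libraries, the protein-coding genes whose log2 values followed TNF most closely were BRAP, ZNF468 and UBR1 (Pearson r of 0.998 for each). These libraries share a large step between groups, and 10.4% of 10170 candidate genes had an r over 0.95.

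Among the inhibitors and feedback regulators, only TNFAIP3 rose. It encodes A20, a ubiquitin-editing enzyme that shuts off signals from the TNF receptor. TNFAIP3 stood at 14.8, 14.4 and 16.3 FPKM in DMSO and at 24.99, 22.1 and 25.5 FPKM in the libraries titled MI-389, with no overlap. The difference was 0.64 ± 0.08 on the log2 scale, a 1.60-fold ratio (limma, adjusted p = 0.000101). NFKBIA stood at 38.8, 40.8 and 47.2 FPKM in DMSO and at 40.02, 39.5 and 42.7 FPKM in the treated libraries. All treated values lay inside the range of the controls, and the difference of -0.05 had a 95% interval of -0.23 to 0.13 (adjusted p = 0.618). The ratio of TNFAIP3 to NFKBIA within a library was thus 0.360 ± 0.0183 in DMSO and 0.594 ± 0.0330 in the libraries titled MI-389. NFKBIE, which encodes IkBepsilon, stood at 8.34 ± 0.909 and 9.22 ± 0.773 FPKM, a difference of 0.13 (95% interval -0.08 to 0.35, adjusted p = 0.269).

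BIRC3, which encodes the ubiquitin ligase cIAP2, stood at 7.91, 6.66 and 8.42 FPKM in DMSO and at 6.88, 5.51 and 6.39 FPKM in the libraries titled MI-389. Groups overlapped, since DMSO replicate 2 lay below replicate 1 of the treated group. The difference of -0.25 ± 0.10 passed narrowly (limma, adjusted p = 0.0452). That call was lost under 11 of 20 other settings: without DMSO replicate 1 or 3, without MI-389-titled replicate 2 or 3, without any 1 of the sunitinib-titled libraries, and under 4 settings that kept all replicates, with adjusted p between 0.0623 and 0.154.

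Of the 5 subunits, REL rose and NFKB2 fell. REL, the c-Rel subunit that T cells use on activation, stood at 1.79, 2.15 and 2.29 FPKM in DMSO and at 3.37, 3.12 and 3.37 FPKM in the libraries titled MI-389. The groups did not overlap, and the ratio was 1.59 with a log2 difference of 0.48 ± 0.13 (limma, adjusted p = 0.00900). The REL row shares 43.3% of its exon bases with the overlapping transcript AC010733.2 on the same strand, so reads of both cannot be told apart. NFKB2, the p100 precursor of p52, stood at 9.49, 8.90 and 10.6 FPKM in DMSO and at 7.59, 6.27 and 6.50 FPKM after treatment. It fell by 0.45 ± 0.09 on the log2 scale, 1.42-fold, without overlap (adjusted p = 0.00155). NFKB1, the p105 precursor of p50, stood at 4.78, 3.37 and 4.73 FPKM and at 5.19, 5.11 and 4.93 FPKM. All 3 treated libraries lay above all controls, and the difference of 0.21 did not pass (95% interval -0.06 to 0.48, adjusted p = 0.162). Without DMSO replicate 2, the lowest control, it was 0.079 (adjusted p = 0.516). RELA stood at 58.0 ± 4.13 and 64.2 ± 3.62 FPKM, a difference of 0.14 (adjusted p = 0.0776) that passed after quantile normalization (adjusted p = 0.00221), after cyclic loess (adjusted p = 0.000903), without DMSO replicate 3 (0.0173) and without MI-389-titled replicate 2 (0.0396). RELB, the partner of p52, stood at 1.52 ± 0.256 and 1.83 ± 0.440 FPKM and did not pass (adjusted p = 0.362).

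The division of transcripts among the subunits is given as shares, without a test. RELA made up 76.7% ± 1.22 of the summed FPKM of the 5 subunit genes in DMSO, 79.1% ± 0.356 in MI-389-titled and 79.6% ± 1.28 in sunitinib-titled libraries. NFKB2 made up 12.8% ± 0.585 in DMSO and 8.36% ± 0.641 in the libraries titled MI-389, and REL 2.74% ± 0.228 and 4.05% ± 0.0407. NFKB2 exceeded NFKB1 by a ratio of 2.29 ± 0.328 in DMSO, 1.34 ± 0.118 in MI-389-titled and 2.17 ± 0.278 in sunitinib-titled libraries. The summed level of the subunits was 75.5 ± 5.05, 81.1 ± 4.39 and 69.2 ± 1.33 FPKM in the same order.

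**Figure D2:**
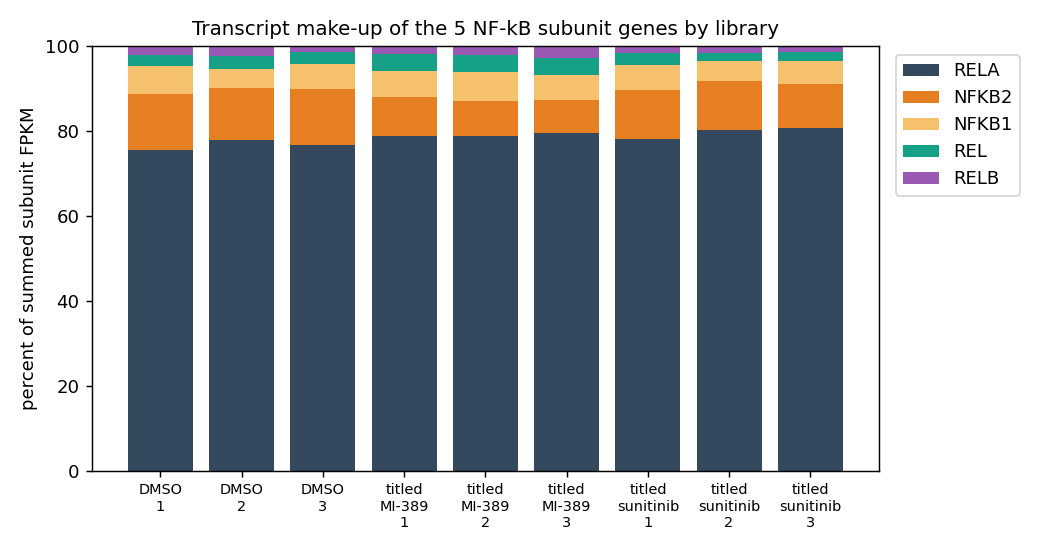
Percent of the summed FPKM of the 5 subunit genes (vertical axis) held by each, in each of the 9 libraries (one bar per library). The NFKB2 share lies between 7.79% and 9.05% in the libraries titled MI-389 and between 12.1% and 13.2% in DMSO, and RELA holds 75.5% or more in every bar.

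**Figure D3:**
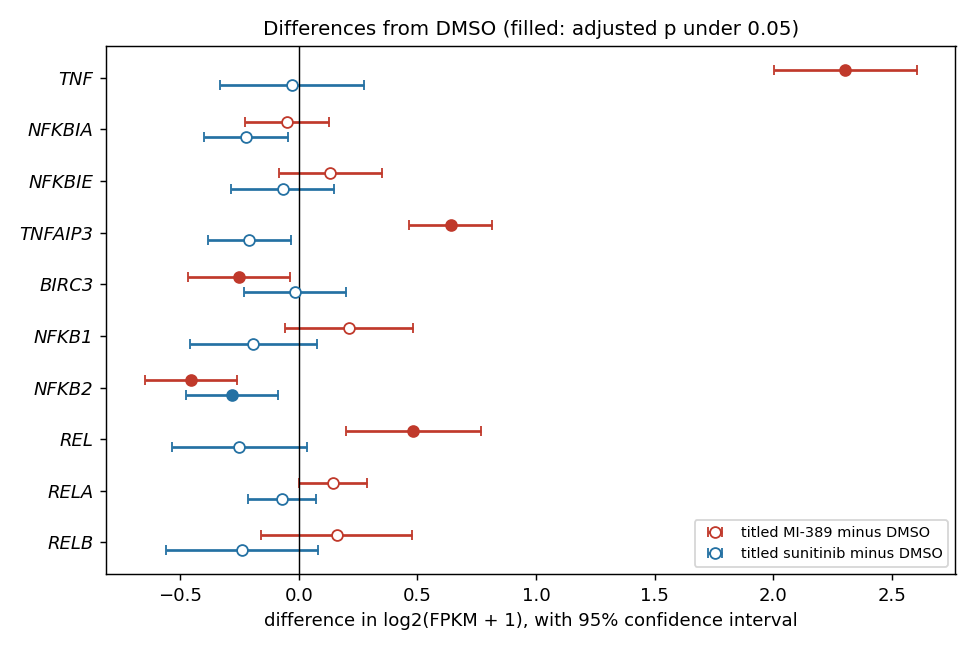
Difference from DMSO in log2(FPKM + 1) (horizontal axis) for each gene in the libraries titled MI-389 (red) and sunitinib (blue); bars are 95% confidence intervals from limma and filled points passed an adjusted p of 0.05. TNF at 2.30 stands apart from the other 9 genes, and NFKB2 is the only gene filled in both.

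Promoter sequence is shown for the 5 genes that passed the test in the libraries titled MI-389. In the bases searched, some of these hold an exact match to the binding motif of the pathway's own factor and some do not. Of the 10 genes, 8 matched a RefSeq promoter window of build GRCh38.p14; NFKBIE and RELB did not. The 250 bases upstream of each start are given 5′ to 3′ on the strand of the gene, with matches to the kappaB consensus, the NF-kB binding motif, in capitals on either strand. The consensus read GGG, A or G, any base, A or T, C or T, C or T, then CC, and only exact matches were taken. All 5 lie on the plus strand: TNF at chr6:31575315-31575564, TNFAIP3 at chr6:137867009-137867258, REL at chr2:60881324-60881573, NFKB2 at chr10:102394328-102394577 (1 of 3 windows of this gene) and BIRC3 at chr11:102317234-102317483.
TNF: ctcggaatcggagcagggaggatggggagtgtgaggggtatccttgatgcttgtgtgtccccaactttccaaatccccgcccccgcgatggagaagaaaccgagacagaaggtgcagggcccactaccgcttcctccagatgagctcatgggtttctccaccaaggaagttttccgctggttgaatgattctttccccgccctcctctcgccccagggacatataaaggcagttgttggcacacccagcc
TNFAIP3: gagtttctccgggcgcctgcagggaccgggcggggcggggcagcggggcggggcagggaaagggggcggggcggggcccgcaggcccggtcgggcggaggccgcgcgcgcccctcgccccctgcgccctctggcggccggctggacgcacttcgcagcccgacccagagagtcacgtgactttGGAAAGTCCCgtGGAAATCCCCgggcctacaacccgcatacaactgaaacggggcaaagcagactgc
REL: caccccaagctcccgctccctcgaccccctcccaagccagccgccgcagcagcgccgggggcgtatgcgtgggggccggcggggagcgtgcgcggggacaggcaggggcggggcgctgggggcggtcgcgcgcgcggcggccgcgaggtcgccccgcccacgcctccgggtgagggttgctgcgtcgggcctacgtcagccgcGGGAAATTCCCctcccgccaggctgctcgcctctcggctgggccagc
NFKB2: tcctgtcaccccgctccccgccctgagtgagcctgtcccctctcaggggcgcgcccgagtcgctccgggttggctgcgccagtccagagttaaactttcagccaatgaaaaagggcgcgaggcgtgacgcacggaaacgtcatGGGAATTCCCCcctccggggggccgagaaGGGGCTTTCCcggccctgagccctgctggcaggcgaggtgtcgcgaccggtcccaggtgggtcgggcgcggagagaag
BIRC3: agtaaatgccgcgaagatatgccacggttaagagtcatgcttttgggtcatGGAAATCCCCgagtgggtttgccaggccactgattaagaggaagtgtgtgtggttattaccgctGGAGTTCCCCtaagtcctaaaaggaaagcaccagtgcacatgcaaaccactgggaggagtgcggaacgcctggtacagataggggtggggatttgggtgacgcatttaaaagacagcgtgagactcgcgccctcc

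A kappaB match was found in 6 of the 8 genes, against 5.21% of 35116 promoter windows of that length; NFKB1, RELA and NFKB2 have more than 1 window each, which gives them more chances of a match. TNFAIP3 holds 2 matches, at 67 to 58 and 55 to 46 bases upstream of the start, both on the minus strand. REL holds 2 that overlap each other, at 47 to 37 bases. BIRC3 holds 2 at 199 to 190 and 135 to 126 bases, and the NFKB2 window shown holds overlapping matches at 107 to 97 bases and another at 78 to 69. NFKBIA, which did not pass the test, holds GGAAATTCCC at 81 to 72 bases upstream. The TNF window, from the gene with the largest rise, holds no exact match to the kappaB consensus. Near matches and bases farther upstream were not searched, so this does not show that TNF lacks an NF-kB site. The TATA box letters TATAAA stand at 29 to 24 bases in TNF and, on the minus strand, at 33 to 28 bases in NFKBIA. They were found in 2 of the 8 genes, against 10.7% of all windows. The genes with a match thus included risers (TNFAIP3, REL), fallers (NFKB2, BIRC3) and genes that did not pass (NFKBIA, NFKB1). The EGR motif GCGNGGGCG was found in TNF, NFKB1, NFKB2 and REL, 4 of the 8, against 8.41% of all windows. In NFKB2 it lies in another window than the 1 shown, and the genes with more than 1 window again had more chances of a match. The AP-1 motif TGANTCA (6.57% of windows), the CRE TGACGTCA (1.65%) and the CArG box (1.16%) were found in none of the 8. Both strands were searched; a match is a run of letters, not a measured binding site.

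Against DMSO, sunitinib-titled libraries were lower in NFKB2, the 1 gene that passed the test. By limma 1 of the 10 genes was called, where 19.3% of all genes were (2.37% higher, 16.9% lower). None rose, and at an unadjusted p of 0.05 none rose and 3 were lower. The median log2 difference of the 10 genes was -0.20, against -0.10 over all genes. Libraries did not overlap for 4 of the 10, against 35.2% of all genes. With median centring 40.5% of all calls were higher, in place of 12.3%.

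NFKB2 stood at 8.08, 7.86 and 7.33 FPKM in the libraries titled sunitinib, below the 8.90 to 10.6 FPKM of DMSO. The difference of -0.28 ± 0.09 had an adjusted p = 0.0490 and was lost under 13 of 20 other settings, with adjusted p of up to 0.159; of the settings that left out 1 library, it held only without MI-389-titled replicate 1 (0.0439). With the replicate number as a block it was 0.0594. TNF stood at 0.782, 0.732 and 0.446 FPKM, with 1 library above, 1 within and 1 below the range of DMSO. Its difference was -0.03 (95% interval -0.33 to 0.27, adjusted p = 0.906). TNFAIP3 stood at 13.9, 11.99 and 13.1 FPKM, each below every control, with a difference of -0.21 (95% interval -0.38 to -0.03) that did not pass (adjusted p = 0.0903). NFKBIA stood at 38.5, 35.8 and 33.6 FPKM, again below all controls, with a difference of -0.22 (adjusted p = 0.0746). It passed without DMSO replicate 1 (adjusted p = 0.0238). RELB, at 1.18, 1.13 and 1.06 FPKM, lay below the 1.25 to 1.77 FPKM of DMSO and did not pass (adjusted p = 0.267). BIRC3 stood at 7.54, 7.56 and 7.48 FPKM against 6.66 to 8.42 in DMSO (95% interval of the difference -0.23 to 0.20). RELA, NFKB1, NFKBIE and REL stood at 55.1 ± 1.10, 3.61 ± 0.418, 7.90 ± 0.799 and 1.60 ± 0.385 FPKM, each overlapping DMSO and none passing.

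Both treated groups were compared with the same DMSO libraries, so their differences from DMSO are not independent. Set directly against the libraries titled sunitinib, those titled MI-389 were higher in 6 of the 10 genes and lower in none (limma; at an unadjusted p of 0.05, 6 higher and 1 lower). Of all genes 56.3% passed, 36% higher and 20.3% lower, and the libraries did not overlap for 8 of the 10 genes, against 69.4% of all genes. With median centring 40.3% of all calls were higher, in place of 63.9%. This comparison holds compound and dose together. TNF differed by 2.33 (adjusted p = 1.24e-06), an 11.2-fold ratio, TNFAIP3 by 0.85 (adjusted p = 1.78e-05), 1.86-fold, and REL by 0.73 (adjusted p = 0.000869), 2.06-fold. NFKB1 (0.40, adjusted p = 0.0169), RELA (0.22, 0.0159) and RELB (0.40, 0.0361) also passed, but all 3 calls were lost with median centring (adjusted p = 0.0929, 0.179 and 0.197) and without sunitinib-titled replicate 2 (0.0647, 0.0540 and 0.0740), which left 3 called genes. Without MI-389-titled replicate 3, the RELA (0.0643) and RELB (0.115) calls were lost and 4 genes were called. The RELA call was also lost without MI-389-titled replicate 1 (0.0598), that of RELB without sunitinib-titled replicate 1 (0.0628) or 3 (0.0794), with quantile normalization (0.0760) and with cyclic loess (0.0688), and that of NFKB1 with no filter on low values (0.0590). BIRC3 and NFKB2 were lower without passing (-0.24, adjusted p = 0.0594, and -0.17, 0.118), and both passed as lower with median centring (adjusted p = 0.00119 and 0.00107). BIRC3 also passed without DMSO replicate 2 (0.0342) or 3 (0.0456), without MI-389-titled replicate 1 (0.0413) and with the replicate block (0.0380), under which the RELB call was lost (0.0588). NFKB2 passed without MI-389-titled replicate 1 (0.0447) and NFKBIA, as higher, without DMSO replicate 3 (0.0307). Of 20 other settings, BIRC3 passed as lower in 8, with adjusted p down to 0.000309, and NFKB2 in 4, down to 0.000762. NFKBIA passed as higher in 2. NFKBIA differed by 0.18 (95% interval -0.0016 to 0.35, adjusted p = 0.0846) and NFKBIE by 0.20 (adjusted p = 0.105).

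Genes beside TNF were then read, a choice made after their values were seen. On chromosome 6 the RefSeq gene order is NFKBIL1, LTA, TNF, LTB and LST1. LTA and LTB encode the lymphotoxins, close relatives of TNF, and NFKBIL1 an IkB-like protein. NFKBIL1 stood at 15.5, 20.5 and 21.0 FPKM in DMSO and at 49.2, 45.04 and 48.4 FPKM in the libraries titled MI-389, a rise of 1.29 on the log2 scale (limma, adjusted p = 1.03e-05). LTB rose from 65.7 ± 1.18 to 95.3 ± 5.97 FPKM (adjusted p = 7.54e-05) and LST1 from 54.6 ± 7.15 to 73.0 ± 3.86 FPKM (adjusted p = 0.00250). LTA, below the filter and not tested, stood at 0.790, 0.720 and 0.956 FPKM in DMSO and at 1.55, 1.41 and 1.40 FPKM after treatment. In all 4 neighbours every library titled MI-389 lay above every DMSO library. Of all tested genes 60.2% did not overlap between these groups, in either direction, and 28.5% were called higher. Farther out, ATP6V1G2, next to NFKBIL1, differed by 0.13 (adjusted p = 0.301), NCR3, next to LST1, lay below the filter, and DDX39B and AIF1 fell, by 0.24 and 0.46 (adjusted p = 0.0232 and 0.00137). NFKBIL1 shares 11.4% of its exon bases with ATP6V1G2 on the other strand, and the library kit does not mark strand. Under the sunitinib title, LTB fell to 48.5 ± 3.02 FPKM (adjusted p = 0.00311), while NFKBIL1 stood at 19.8 ± 1.61 FPKM.

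**Figure D4:**
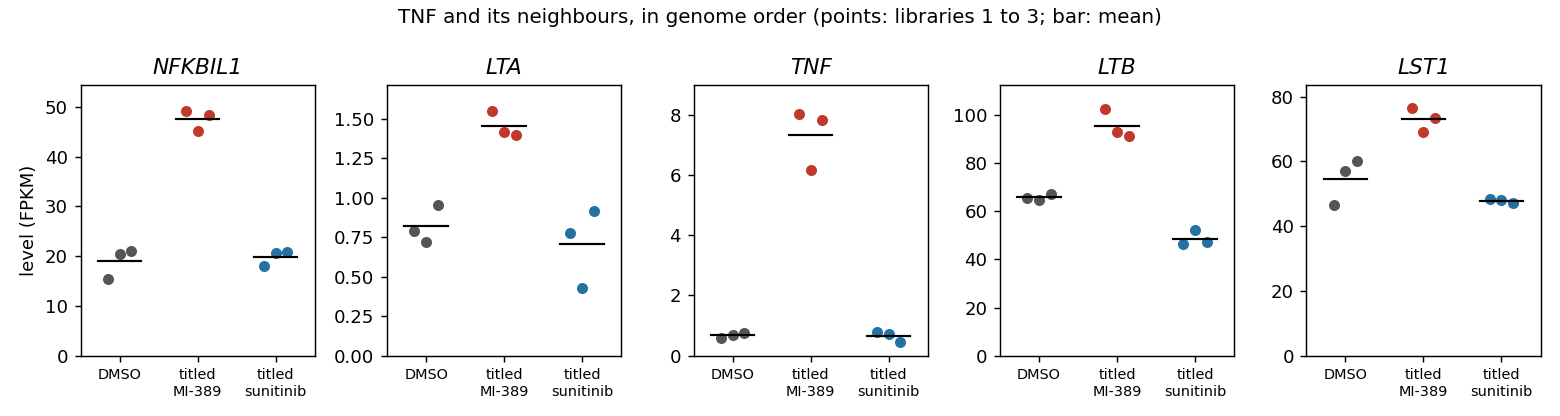
Level in FPKM (vertical axes, linear, from 0) of TNF and 4 genes beside it, in the order of the genome, in the 9 libraries; points are libraries and bars group means. All 5 genes are higher in each library titled MI-389 than in each DMSO library, from 1.40 against 0.956 FPKM for the closest LTA libraries upward. Of all tested genes 60.2% do not overlap between these groups, in either direction.

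The rest of the pathway was read from 6 lists of 99 further genes. Of these 58 passed the filter, and 41 lay below a mean of 1 FPKM, 22 of them never above 0.2 FPKM in any library. In the libraries titled MI-389, 20 of the 58 rose and 11 fell by limma (34.5% and 19.0%, against 28.5% and 28.3% of all genes), with a median log2 difference of 0.03. Against DMSO, the sunitinib-titled libraries showed none higher and 13 lower (22.4%, against 16.9%), with 4 higher and 14 lower at an unadjusted p of 0.05. Set against the libraries titled sunitinib, those titled MI-389 were higher in 23 and lower in 6 of the 58. These are 39.7% and 10.3%, against 36% and 20.3% of all genes. Counts for the single lists below are to be read against the same shares of all genes. No list was tested as a set.

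Of 5 ligands tested, 3 rose in the libraries titled MI-389 and none fell. Besides LTB these were TNFSF8, the CD30 ligand, 1.90-fold to 4.70 ± 0.241 FPKM, and TNFSF10, which encodes the death ligand TRAIL, 1.77-fold to 6.98 ± 0.715 FPKM. Sunitinib-titled libraries showed falls of 3 ligands: LTB, TNFSF4 (OX40 ligand), from 2.46 ± 0.134 to 1.26 ± 0.115 FPKM, and TNFSF13 (APRIL), from 2.84 ± 0.409 to 1.84 ± 0.213 FPKM. The TNFSF13 call was lost without DMSO replicate 2 or 3 or without any 1 of the sunitinib-titled libraries (adjusted p between 0.0530 and 0.0924), with median centring (0.0544) and with cyclic loess (0.0540). Its row shares 55.5% of its exon bases with the TNFSF12-TNFSF13 readthrough gene.

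Among receptors and adaptors, 5 of 15 were higher and 5 lower in the libraries titled MI-389. Of all tested genes 28.5% were higher and 28.3% lower. TNFRSF1A, the main TNF receptor, rose 1.42-fold from 49.6 ± 4.18 to 70.6 ± 2.08 FPKM. BIRC2, which encodes cIAP1, rose 1.70-fold to 65.5 ± 3.02 FPKM, opposite to BIRC3, and TRAF6, an adaptor of interleukin-1 and Toll-like receptors, rose 1.72-fold to 11.4 ± 0.548 FPKM. TRAF3, which restrains MAP3K14, fell from 21.8 ± 1.61 to 13.4 ± 0.897 FPKM. Of the 15, 3 fell under the sunitinib title and none rose (2 higher and 3 lower at an unadjusted p of 0.05). These were TNFRSF8 (CD30), from 10.9 ± 0.861 to 4.18 ± 0.502 FPKM, TRAF2, 1.29-fold, and TRAF3, to 16.9 ± 0.799 FPKM, whose call was lost without sunitinib-titled replicate 2 (adjusted p = 0.0508). All 3 also fell in the libraries titled MI-389, TNFRSF8 to 5.66 ± 0.876 FPKM (-0.84 on the log2 scale, adjusted p = 0.000206) and TRAF2 1.19-fold (-0.25, adjusted p = 0.0116). MYD88, a Toll-like receptor adaptor, fell in the libraries titled MI-389 (-0.50, adjusted p = 0.000251) and was lower there than in those titled sunitinib (-0.38, adjusted p = 0.00135).

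Of 10 genes for IKK subunits, upstream kinases and their adaptors, 4 rose and 1 fell in the libraries titled MI-389. MAP3K14, the NIK kinase of the non-canonical branch, rose 1.74-fold from 7.501 ± 0.875 to 13.1 ± 1.33 FPKM. Its exons overlap those of MAP3K14-AS1 on the other strand (12.3%). TAB2, which links ubiquitin chains to the kinase TAK1, rose 1.43-fold and CHUK, the IKKalpha subunit, 1.22-fold. TAB3, a relative of TAB2, rose by 0.28 on the log2 scale, a call lost with quantile normalization (adjusted p = 0.0738). The gene that fell was IKBKB, another IKK subunit, by 0.17 without overlap (limma, adjusted p = 0.0340). Its call was not read under other settings. Under the sunitinib title none of the 10 passed (0 higher and 1 lower at an unadjusted p of 0.05).

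Ubiquitin enzymes and partners of A20 rose in 5 of 14 cases and fell in 2 in the libraries titled MI-389. The A20 partners ITCH (1.44-fold), TAX1BP1 (1.44-fold) and RNF11 (1.28-fold) rose, as TNFAIP3 did, and so did CYLD, a deubiquitinase that limits NF-kB signalling (1.37-fold, to 13.1 ± 0.629 FPKM). The A20 partners TNIP1 and TNIP2 did not pass, at -0.15 (adjusted p = 0.0807) and 0.060 (0.540) on the log2 scale; TNIP1 passed as lower with median centring (0.00106), quantile normalization (0.00116), cyclic loess (0.00422) and without DMSO replicate 1 (0.00473). UBE2N, an enzyme that builds signalling ubiquitin chains, fell 1.29-fold in the libraries titled MI-389 (adjusted p = 0.000970) and 1.19-fold in those titled sunitinib (adjusted p = 0.0271); it shares 39.5% of its exon bases with NUDT4 on the other strand. NFKBIB, which encodes IkBbeta, fell in the libraries titled sunitinib from 57.4 ± 6.73 to 45.4 ± 0.959 FPKM, and at 62.2 ± 3.50 FPKM it was higher in the libraries titled MI-389 than in those titled sunitinib (adjusted p = 0.00128). The falls of UBE2N and NFKBIB in the libraries titled sunitinib were each lost without DMSO replicate 2 or 3 or without any 1 of the sunitinib-titled libraries (adjusted p between 0.0525 and 0.109), and with the replicate block (0.0521 and 0.0527).

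Target genes of NF-kB include chemokines, cytokines and survival factors. Of 32 listed, 21 lay below the filter and 12 of these never exceeded 0.2 FPKM, among them IL6, CXCL1, CCL4 and CSF2, each at 0.104 FPKM or less in all 9 libraries. Of the 11 tested, 2 rose and 3 fell in the libraries titled MI-389, with a median log2 difference of -0.04. CXCL3, a chemokine, rose from 2.06 ± 0.720 to 4.51 ± 0.853 FPKM, and CFLAR, an inhibitor of caspase-8, 1.19-fold, a call lost with median centring (adjusted p = 0.170), quantile normalization (0.390), cyclic loess (0.244) and without DMSO replicate 2 or 3 or MI-389-titled replicate 2 or 3 (0.0543 to 0.0907). CD83, an activation marker of lymphocytes and dendritic cells, fell from 20.5 ± 2.04 to 6.78 ± 0.837 FPKM, and SOD2, the mitochondrial superoxide dismutase, 1.14-fold. The SOD2 call was lost without DMSO or MI-389-titled replicate 2 or 3 (adjusted p between 0.0835 and 0.101), without any 1 of the sunitinib-titled libraries (up to 0.0524) and with the replicate block (0.0598). In the libraries titled sunitinib 5 of the 11 fell and none rose (0 higher and 5 lower at an unadjusted p of 0.05), among them CD83, to 11.6 ± 0.954 FPKM, SOD2, TNFAIP8, a TNF-induced gene, and GADD45B, a stress-inducible growth regulator. Of these, SOD2, TNFAIP8 and GADD45B lost their calls without DMSO replicate 2 (adjusted p = 0.0605, 0.0588 and 0.0536), sunitinib-titled replicate 2 (0.0759, 0.0840 and 0.0820) or sunitinib-titled replicate 3 (0.0749, 0.0806 and 0.114). The SOD2 call was also lost without sunitinib-titled replicate 1 (0.0529), and that of GADD45B without DMSO replicate 1 (0.0552) or MI-389-titled replicate 3 (0.0526), with median centring (0.122), with quantile normalization (0.0759) and with cyclic loess (0.0777). With only the 6 libraries compared, the sunitinib-titled calls of SOD2, TNFAIP8, GADD45B, TNFSF13, UBE2N and NFKBIB were lost (adjusted p between 0.0559 and 0.0752), as were the MI-389-titled calls of SOD2 (0.0785) and CFLAR (0.0522). With no filter on low values, those of GADD45B, TNFSF13, UBE2N and NFKBIB (0.0559 to 0.0782) and, for the MI-389 title, of SOD2 (0.0626) and CFLAR (0.0537) were lost. Set against the libraries titled sunitinib, those titled MI-389 were higher in 4 of the 11 and lower in 2 (limma). Of all genes 36% were higher and 20.3% lower there. CXCL3 (0.84, adjusted p = 0.00362), IER3 (0.36, 0.00475) and TNFAIP8 (0.19, 0.0155) were among the higher, and CD83 was lower (-0.70, 0.000252). The IER3 call was lost under 3 of 20 other settings and that of TNFAIP8 under 5. IER3 shares 26.5% of its exon bases with IER3-AS1 on the other strand.

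**Figure D5:**
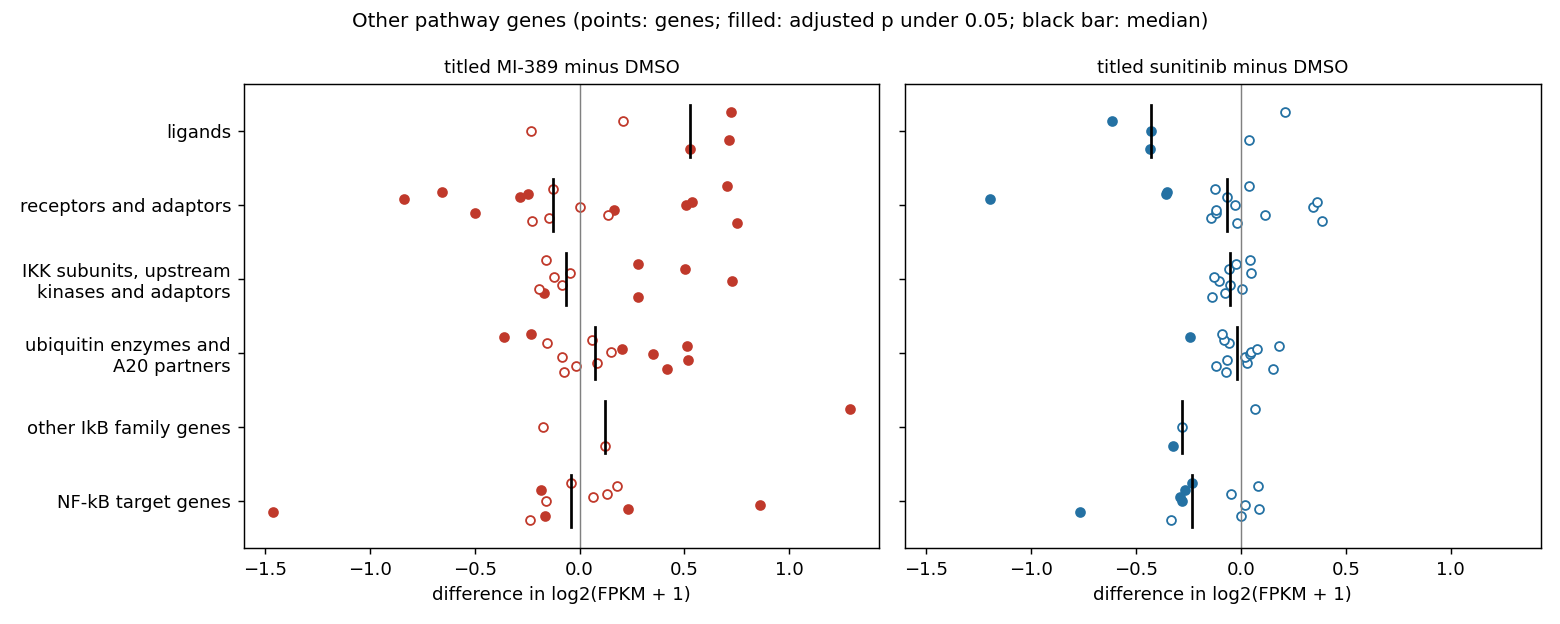
Difference from DMSO in log2(FPKM + 1) (horizontal axes) for the 58 tested pathway genes beside the 10, by list, in the libraries titled MI-389 (left) and sunitinib (right); points are genes, filled where the adjusted p was under 0.05, and black bars are list medians. On the left filled points lie on both sides of 0, from CD83 at -1.46 to NFKBIL1 at 1.29; on the right all 13 filled points lie below 0.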

How the data were processed

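RNA sequencing of polyA RNA from MOLT4 cells gave 9 libraries in 3 groups of 3. Per the submitters' processing notes, HISAT, Cufflinks 2.0.0 and the build hg19 were used. For the annotation and the counting nothing is given in the sources used here. For scaling across libraries only the label norm is given. Per the labels' protocols the SMARTer v4 kit was used. It keeps no strand information. Values were used as deposited by the authors, in FPKM, libraries in columns and gene symbols in rows: 92 spike-in rows and 23621 gene rows.

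Libraries were grouped by title. The 12301 genes that averaged 1 FPKM or more entered limma 3.58.1 (R 4.3.3) as log2(FPKM + 1), all libraries and groups in 1 model with a variance trend, two-sided, with Benjamini-Hochberg adjustment over all tested genes at 0.05. A log2 difference on this scale understates changes of low genes; folds are ratios of mean FPKM. Since FPKM holds no counts, no count model was used, and the number of fragments behind a value is unknown. The model was tested on simulated data. Relative depth came from low rows that stood above the floor in just 1 library of each group compared (82 and 108 genes). It was the median over only those near the most common ratio, 49 genes for the MI-389 title and 64 for the sunitinib title.

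The members and lists were chosen with earlier results of these data known. Named genes were all 10 members, up to 4 called genes with the smallest adjusted p of each other list per comparison, and the 3 genes most like TNF; those most like NFKBIA were MGME1, U2SURP and TPST2 (r of 0.97, 0.97 and 0.96). TNIP1, TNIP2 and IKBKB, and the MI-389-titled values of TNFRSF8, TRAF2, MYD88 and UBE2N, were added after their values were seen. One further list of pathway genes is not reported here and is left out of the pooled counts. The OTULIN and CXCL8 rows were matched by older symbols. Other settings tried were each library left out, a pseudocount of 0.1 or 5, a filter at 5 FPKM or none, median centring, quantile normalization, cyclic loess, rescaling to spike-in RNA, a fit without the variance trend, one with the replicate number as block, and one on just the 6 libraries in question. Promoters are RefSeq windows (GRCh38.p14), gene overlaps are from a GENCODE annotation of another build than the authors', and no coordinates were taken from the deposited table.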

Additional observations from a re-analysis of the deposited data

How the results depend on the processing

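Absolute read totals are unknown, so no counting error can be given for low values. The rises of TNF, TNFAIP3 and REL and the fall of NFKB2 in the libraries titled MI-389 kept their calls under all alternatives in which each was tested. With a filter at a mean of 5 FPKM, 4 of the 10 genes are no longer tested, and 2 were called for MI-389-titled against DMSO and 2 for MI-389-titled against sunitinib-titled. Leaving out 1 library gave 4 to 5 called members for MI-389-titled against DMSO and 3 to 8 for MI-389-titled against sunitinib-titled (3 without sunitinib-titled replicate 2). For sunitinib-titled against DMSO it gave 0 to 1, and the count was 0 with no filter, with the filter at 5, rescaled to spike-in RNA, with the replicate block and with only the 6 libraries compared.

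Over all genes, sunitinib-titled against DMSO gave 2370 calls, but 1423 with no filter, 3677 with quantile normalization, 3814 with cyclic loess and 1225 with only the 6 libraries compared. Leaving out 1 library gave 929 (without sunitinib-titled replicate 2) to 4244 (without DMSO replicate 1), with 1572 without DMSO replicate 2, and 1529 and 995 without sunitinib-titled replicates 1 and 3. Higher calls made up 46.1% with quantile normalization and 48.6% with cyclic loess; for MI-389-titled against sunitinib-titled they made up 46.1% and 50.2%. The cause was not tested.

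Near 0, signs turned in sunitinib-titled against DMSO. With median centring, TNF stood at 0.0576, NFKBIE at 0.0182, BIRC3 at 0.0687 and RELA at 0.0156. With quantile normalization BIRC3 stood at 0.0495 and RELA at 0.0370, and with cyclic loess TNF at 0.0232, NFKBIE at 0.00608, BIRC3 at 0.0539 and RELA at 0.0442. Leaving out 1 library gave TNF -0.086 to 0.0651, NFKBIE -0.138 to 0.00902, BIRC3 -0.104 to 0.0454 and NFKBIL1 -0.0668 to 0.142, and for MI-389-titled against DMSO NFKBIA -0.106 to 0.0308 (positive without DMSO replicate 3). In the same comparison TNIP2 stood at -0.0182 with median centring and at -0.0248 to 0.121 with 1 library left out (negative without DMSO replicate 1).

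Groups share replicate numbers, but nothing in the labels pairs them. Deviations of same-numbered libraries from their group means correlated at -0.04 to 0.11. Between the MI-389-titled and sunitinib-titled groups, each library correlated best with its own number (0.070, 0.112 and 0.039). In the comparisons with DMSO this was not so for every library. With 3 libraries per group these correlations cannot show whether the numbers pair. The replicate block gave 6816, 1941 and 6740 calls over all genes for MI-389-titled against DMSO, sunitinib-titled against DMSO and MI-389-titled against sunitinib-titled, and 5, 0 and 6 called members. In the last comparison BIRC3 gained a call with the block (adjusted p = 0.0380) and RELB lost one (0.0588). The floor subtraction for TNF and the alternatives for genes outside the 10 were chosen after seeing the data.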
